A study of Mus musculus with 4 samples.

Results

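Rbpj-high cells were lymphoid-primed multipotent progenitors (LMPPs, bone marrow cells able to form lymphoid and myeloid progeny) selected on their Rbpj count, at 5 or more unique molecular identifiers (UMIs, 1 for each captured transcript) of Rbpj after doxycycline had switched the gene on. The number of such cells was 697, of 3421 cells in the induced libraries and 8883 cells in all, with 270 at 3 days and 427 at 6 days. The study sorted bone marrow LMPPs from C57BL/6 mice by flow cytometry and sequenced them in 10x Genomics droplets, with 1 library for each of 4 groups. The groups were RBPJ 3 days induced and RBPJ 6 days induced (mice deficient in RBPJ in which doxycycline restored it), RBPJ uninduced (mice lacking RBPJ) and Control (mice that kept RBPJ throughout). Doxycycline was injected at 2 mg/ml and then given in the drinking water at 1 mg/ml. The labels attach this text to all 4 libraries and do not say whether uninduced and control mice were treated. They also name neither the driver of the deletion or of the inducible gene nor the number of mice in a library. Members were set against cells of 0 Rbpj UMIs in the same library, so both classes shared the library and its induction time. If a library pooled several mice, whether both classes came from the same mice cannot be told.

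RBPJ is the DNA-binding protein of the Notch pathway. When a Notch receptor is cut after meeting its ligand, its intracellular part joins RBPJ and Mastermind coactivators and switches on targets such as Hes1, while RBPJ without Notch can recruit corepressors. In lymphoid-primed progenitors that reach the thymus, Notch signals through RBPJ start the T lineage and hold back B and myeloid fates.

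RBPJ binds DNA at the core motif GTGGGAA, or TTCCCAC on the other strand. The motif was searched in the 250 bases before the start of each gene (RefSeq, GRCm38.p6), where it stood on either strand in 1669 of 27025 genes (6.18%). Of 6 core Notch targets with an entry (Hes5, Nrarp, Dtx1, Notch3, Ptcra and Il2ra) only Hes5 held it in this window. The Hes5 and Nrarp stretches are shown as a Notch target with the motif and one without it, read 5′ to 3′ on the plus strand, with the motif in capitals. Hes5 is at chr4:154960673-154960922, and its matches begin at positions -226 (TTCCCAC) and -83 (GTGGGAA), counted back from -1 at the base before the start.
Hes5: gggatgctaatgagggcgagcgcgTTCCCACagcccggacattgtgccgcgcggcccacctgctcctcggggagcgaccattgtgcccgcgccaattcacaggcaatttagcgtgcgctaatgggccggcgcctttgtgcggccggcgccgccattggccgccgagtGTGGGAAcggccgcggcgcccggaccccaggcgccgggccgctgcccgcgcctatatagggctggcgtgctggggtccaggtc
Nrarp, chr2:25180508-25180757: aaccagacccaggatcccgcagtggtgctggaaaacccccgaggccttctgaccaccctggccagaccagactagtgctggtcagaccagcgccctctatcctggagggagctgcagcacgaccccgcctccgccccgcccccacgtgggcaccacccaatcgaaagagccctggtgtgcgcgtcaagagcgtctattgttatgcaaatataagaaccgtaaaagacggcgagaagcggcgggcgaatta
Among genes with an entry, the motif stood in 8 of 153 genes called higher in Rbpj-high cells and in 9 of 138 called lower, beside 454 of 7406 genes tested (6.13%).

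Rbpj (a protein-coding gene on the plus strand of chromosome 5, 53466152 to 53657362 in GRCm38) chose the members, so its values are a description with no test. A member held a lowest of 5, a median of 13 and a highest of 147 Rbpj UMIs at 3 days, and 5, 12 and 115 at 6 days. Summed over members, Rbpj stood at 1585 CPM (UMI counts normalised to the total over the cells) at 3 days and 1476 CPM at 6 days, against 11.2 CPM (9.83 to 12.7) in all uninduced cells and 17.8 CPM (16.1 to 19.6) in all control cells. Ranges in brackets here and later are 95% exact intervals that cover counting error only. Members made up 20.9% of the 3-day and 20.1% of the 6-day cells and carried 89.1% and 88.3% of their library's Rbpj UMIs. Just outside the limit, the 42 and 57 cells of 4 UMIs stood at 385 and 402 CPM at 3 and 6 days, and just inside it the 29 and 45 cells of 5 UMIs stood at 480 and 478 CPM. Of 2769 uninduced cells 3 reached 5 UMIs, with a highest of 7. Of 2693 control cells 0 did, and the highest held 3. A floor of 3 cells is a share of 0.111%, and the exact interval reaches 0.137%. RNA outside cells (barcodes of 10 to 100 UMIs) held Rbpj at 291 CPM at 3 days and 285 CPM at 6 days. How much of a cell's Rbpj came from such free RNA was not measured, and a cell of 0 UMIs may still express the gene.

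**Figure D1:**
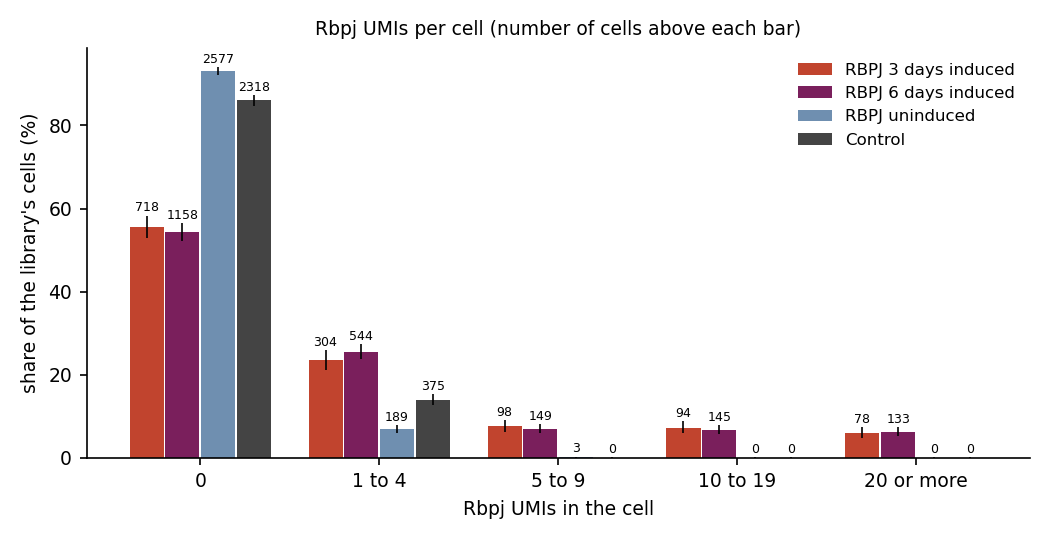
Share of each library's cells (%) by the number of Rbpj UMIs in the cell, with exact binomial 95% intervals and the number of cells above each bar. Cells of 5 or more UMIs were 270 at 3 days and 427 at 6 days, against 3 in the uninduced and 0 in the control library.

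Rbpj-high cells held more UMIs and more often carried mitotic transcripts than cells without Rbpj UMIs. Selection on a raw count favours cells of more UMIs, so part of this follows from the rule. The mitotic shares below are of raw counts, not corrected for depth. Members had a median of 11071.5 UMIs at 3 days and 11436 at 6 days, against 6269 and 6051.5 in Rbpj-zero cells. More than 2 UMIs of 7 mitotic genes (Mki67, Top2a, Ube2c, Birc5, Cdk1, Ccnb1 and Ccnb2) stood in 74.1% and 76.3% of members, against 21.0% and 18.5% of Rbpj-zero cells. For this reason members were matched 1 to 1 to Rbpj-zero cells of their library on total UMIs and on the sum of these genes. A partner within the set limits was found for 239 of 270 members at 3 days and for 341 of 427 at 6 days. Members without a partner were left out of the comparison. The median mitotic sum was 9.5 and 13 UMIs over all members at 3 and 6 days, and 8 at both times in those matched. The compared members were thus less mitotic than members as a whole. The matched classes had the mitotic genes at a summed 1336 against 1349 CPM at 3 days and 1276 against 1287 CPM at 6 days. Depth stayed uneven, at a median of 11323 against 9586 UMIs at 3 days and 11436 against 9369 UMIs at 6 days, and so did the median mitotic sum, at 8 against 5 UMIs per cell at both times. A closer match with 216 and 298 pairs, chosen after seeing this, had medians of 10056.5 against 9703.5 and 10627 against 9584 UMIs, and of 7 against 6.5 and 6 against 6 mitotic UMIs.

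The libraries held 10647894 (3 days), 17455692 (6 days), 20952799 (uninduced) and 23504158 UMIs (control) in cells. Induced libraries shared 5 cell barcodes, none of them a member in both. With 1 library for each time, time and library cannot be told apart, and each p-value rests on 2 libraries with 1 residual degree of freedom per gene, joined to a spread borrowed from all genes (median prior of 13.9 degrees of freedom).

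Of 9606 genes tested, 184 were called higher in Rbpj-high cells (1.92%) and 180 lower (1.87%), 364 in all (3.79%), by edgeR's quasi-likelihood test with Benjamini-Hochberg adjustment at 0.05. The median log2 fold over all genes was -0.01. Most called differences were small, as 26 genes higher (0.271%) and 52 lower (0.541%) were also at least 1.5-fold apart the same way in each library. The closer match called 56 genes higher and 52 lower, of which 104 were among the 364 calls (28.6% of these and 96.3% of its own). The same direction was seen for 356 of the 356 that could be tested there. It was seen for 326 of 336 at 2 or fewer mitotic UMIs, where 25 of the 364 were called again. Without cells of 10 or more UMIs of other types' genes it was seen for 331 of 339, with 90 called again. All these settings drew cells from the same members and pool, and the genes were chosen by their calls. Agreement in direction was thus favoured in advance and is no independent check. Without the library term in the fit the calls were 1 higher and 1 lower. DESeq2 called 82 of the 1022 genes to which it gave an adjusted p, all of them among the 364.

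**Figure D2:**
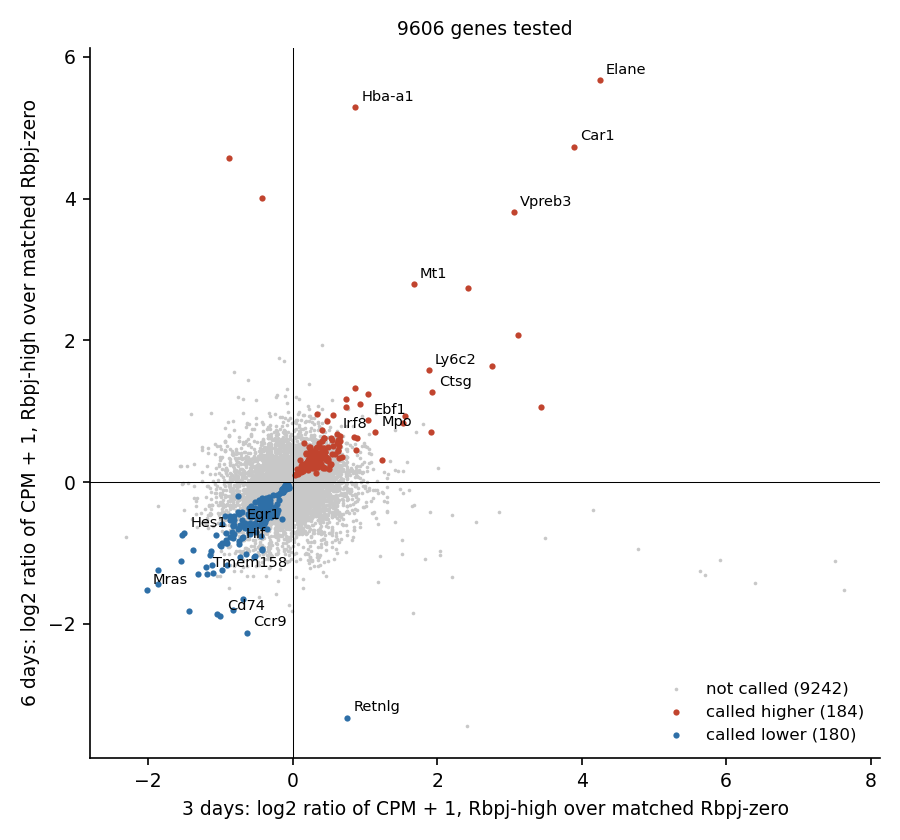
Log2 ratio of CPM + 1, Rbpj-high over matched Rbpj-zero cells, at 3 days (horizontal axis) and at 6 days (vertical axis), with 1 point for each of 9606 genes. Called genes (184 higher in red, 180 lower in blue) lie mostly along the diagonal near 0, while Retnlg and Hba-a1 stand far from 0 at 6 days only.

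Hes1 encodes a repressor of transcription and is switched on directly by Notch. The gene (protein coding, plus strand of chromosome 16, 30064384 to 30067796 in GRCm38) was lower in Rbpj-high cells than in matched cells without Rbpj transcript at both times. At 3 days Hes1 was at 16.5 CPM (12 to 22) in Rbpj-high cells against 48.6 CPM (39.9 to 58.6) in Rbpj-zero cells, 0.339-fold (0.234 to 0.484). At 6 days it was at 73.5 CPM (65.3 to 82.4) against 121 CPM (109 to 134), 0.607-fold (0.519 to 0.708). The classes did not overlap within a library beyond counting error, but the Rbpj-high level at 6 days was above the Rbpj-zero level at 3 days. The fitted log2 fold was -0.96 (adjusted p = 0.00113). With the closer match it was -0.66 (adjusted p = 0.029). In the 70 and 101 pairs of 2 or fewer mitotic UMIs, a set chosen after seeing the data, it was -0.45 (adjusted p = 0.478). The Hes1 call was lost there, in fewer pairs and at a smaller fold, and the reason was not tested. When Rbpj-zero cells could be reused as partners the log2 fold was -0.58 (adjusted p = 0.381), also without a call.

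Fewer cells also held a Hes1 transcript among the Rbpj-high. After each cell was thinned to 4700 UMIs, 4.33% (2.10 to 7.82) of Rbpj-high against 13.9% (9.67 to 18.99) of Rbpj-zero cells had a Hes1 UMI at 3 days. At 6 days 13.1% (9.68 to 17.3) against 26.0% (21.3 to 31.1) did. Unthinned shares were 9.21% against 19.2% and 24.9% against 33.4%. Free RNA held Hes1 at 34.8 CPM at 3 days and 119 CPM at 6 days, and no cell type in these libraries is known to lack the gene, so no background share can be set. In sums over cells, fewer expressing cells and less RNA per cell cannot be told apart.

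Cells with more Rbpj UMIs had lower Hes1 levels in both libraries, apart from 1 step at 3 days. At 3 days it stood at 60.4, 41.7, 16.5, 28.2 and 7.38 CPM in cells of 0, 1 to 4, 5 to 9, 10 to 19 and 20 or more Rbpj UMIs. At 6 days the same bins held 164, 137, 95.6, 60.9 and 53.3 CPM. The intervals of neighbouring bins overlapped for 5 to 9 and 10 to 19 UMIs at 3 days and for the last pair at 6 days. The mitotic genes moved with the bins as well, at 638, 1050, 1352, 1519 and 1562 CPM at 3 days and 554, 979, 1195, 1590 and 1890 CPM at 6 days, and their part in the Hes1 levels was not tested. In control cells the spread was small, with Hes1 at 86.1 CPM (77.1 to 95.7) in cells of 1 to 4 Rbpj UMIs and 90.5 CPM (86.3 to 94.8) in cells of 0.

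**Figure D3:**
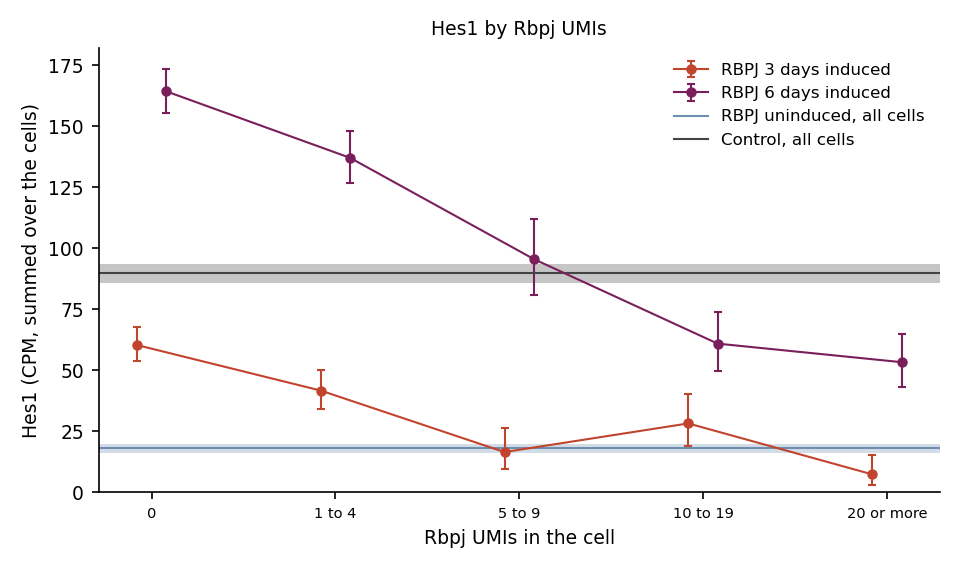
Hes1 level (CPM summed over the cells, with exact Poisson 95% intervals) by the number of Rbpj UMIs in the cell, for both induced libraries. Lines with bands give all uninduced cells at 18.0 CPM and all control cells at 89.7 CPM. In the 6-day library Hes1 was at 53.3 CPM in cells of 20 or more Rbpj UMIs and at 164 CPM in cells of 0.

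Over all members, before matching, Hes1 stood at 17.8 CPM (13.3 to 23.2) at 3 days, a ratio of 0.987 (0.728 to 1.31) to the 18.0 CPM (16.2 to 19.9) of uninduced cells. At 6 days members stood at 69.0 CPM (62.0 to 76.7), 3.84-fold (3.31 to 4.45) the uninduced level and 0.769-fold (0.685 to 0.862) the control level of 89.7 CPM (85.9 to 93.6). Rbpj-zero cells of the same libraries were above the uninduced level at both times, 3.35-fold (2.87 to 3.92) at 3 days and 9.13-fold (8.13 to 10.3) at 6 days. Members at 6 days were 3.89-fold (2.91 to 5.28) above members at 3 days. These libraries are 1 for each group, and their differences have no replicate check.

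Of 9 core Notch targets 4 were measured well enough to test and 1 was called, Hes1. At an unadjusted p under 0.05 there were 2, Hes1 and Nrarp, beside 1668 of 9606 over all genes. Hes5, another repressor of the Hes family, stood at 2.93 against 3.53 CPM at 3 days and at 5.29 against 5.29 CPM at 6 days. Nrarp, a feedback inhibitor of Notch, stood at 4.39 against 5.74 CPM and 4.03 against 8.10 CPM, 0.497-fold (0.249 to 0.963) at 6 days (fitted log2 fold -0.76, adjusted p = 0.28). Ptcra, the pre-T cell receptor alpha chain, was at 2.20 CPM in Rbpj-high and 0 in Rbpj-zero cells at 3 days, and at 3.78 against 4.98 CPM at 6 days. Hey1, Heyl, Dtx1, Notch3 and Il2ra were at 0 to 0.623 CPM in every matched class and were not tested. These levels, near that of a few UMIs, cannot show a moderate difference.

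Upstream of the targets, the receptor Notch1 stood at 38.4 against 49.9 CPM at 3 days and 47.1 against 60.1 CPM at 6 days and was not called (log2 fold -0.36, adjusted p = 0.129). Ligands of the Delta and Jagged families were at 0 to 1.25 CPM in the matched classes. Of 13 tested processing enzymes (the ADAM proteases and gamma-secretase subunits that cut the receptor, and the glycosyltransferases that modify it) 0 were called, with a median log2 fold of 0.00. Of 18 tested RBPJ coactivators and corepressors (such as Maml1, Ep300, Spen and Ncor1) 0 were called, also with a median of 0.00. At an unadjusted p under 0.05 edgeR had 0 of the enzymes and 2 of the cofactors, beside 1668 of 9606 over all genes. DESeq2 gave an adjusted p to 1 enzyme and 2 cofactors only and called 0 of these. The only call among 8 tested turnover factors was Dtx3, of the Deltex family of ubiquitin ligases, at 30.8 against 49.9 CPM and 36.2 against 56.4 CPM (log2 fold -0.66, adjusted p = 0.00751), and it missed the threshold with the closer match (adjusted p = 0.0638).

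Part of the myeloid progenitor list was higher in Rbpj-high cells. Of 15 tested genes of the list 8 were called higher and 0 lower, with a median log2 fold of 0.54 against -0.01 over all genes. The shares called over all genes, here and for the lists below, were 1.92% higher and 1.87% lower. The 8 were Mpo, Ctsg, Elane, Prtn3, Ly6c2, Ms4a3, Irf8 and Calr. Mpo, the myeloperoxidase of neutrophil granules (GRCm38 chromosome 11, 87793581 to 87804413), stood at 178 against 79.9 CPM at 3 days, 2.23-fold (1.87 to 2.65), and at 104 against 63.2 CPM at 6 days, 1.64-fold (1.38 to 1.95). Ctsg, the granule protease cathepsin G (chromosome 14, 56099881 to 56102574, minus strand), stood at 97.4 against 24.7 CPM, 3.94-fold (2.94 to 5.35), and at 67.4 against 27.4 CPM, 2.46-fold (1.93 to 3.17). Irf8, a transcription factor of monocyte and dendritic cell development (chromosome 8, 120736358 to 120756694), stood at 131 against 85.7 CPM, 1.53-fold (1.28 to 1.84), and at 158 against 98.7 CPM, 1.60-fold (1.40 to 1.84). Each Rbpj-high level was above its Rbpj-zero level at both times, and these 3 genes were called again with the closer match, among cells of low mitotic sum and without the cells of other lineages' defining transcripts described later. Their adjusted p were 3.38e-05 (Mpo), 1.69e-05 (Ctsg) and 0.000119 (Irf8), at log2 folds of 0.94, 1.61 and 0.65. The closer match called 6 of 13 genes of the list higher and 0 lower, at a median of 0.36. A wider exclusion of cells with 10 or more UMIs of other types' genes, which counts Mpo and Ctsg themselves and leaves 67 and 162 pairs, ended the calls of Ctsg (log2 fold 0.19, adjusted p = 0.964) and Irf8 (0.24, adjusted p = 0.654).

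These transcripts were present in LMPPs of the other libraries too. Control cells held Mpo at 104 CPM, Ctsg at 42.1 CPM and Irf8 at 120 CPM, and uninduced cells held them at 81.6, 36.9 and 116 CPM. These values cover all cells of those libraries and are not matched. After thinning, 34.2% of Rbpj-high against 26.4% of Rbpj-zero cells held a Mpo UMI at 3 days and 25.7% against 20.2% at 6 days, and 20.3% against 5.19% and 15.0% against 9.17% held a Ctsg UMI. Unthinned, the Mpo shares were 50.6% against 35.6% and 42.5% against 34.3%, and the Ctsg shares 32.2% against 10.9% and 24.9% against 15.2%. Calr, an endoplasmic reticulum chaperone, and Prtn3, the granule protease proteinase 3, differed less, at log2 folds of 0.41 and 0.30, and Prtn3 was not called with the closer match (adjusted p = 0.53).

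The highest folds came from transcripts of a few cells. Elane, neutrophil elastase, stood at 76.9 against 3.09 CPM at 3 days and at 50.1 CPM against 0 at 6 days, where it was at least 53.6-fold higher against a floor of 3 counts. Its UMIs lay in 6 of 239 and 7 of 341 Rbpj-high cells. Car1, a carbonic anhydrase of the erythroid lineage, stood at 13.9 and 25.7 CPM in Rbpj-high cells against 0 in both Rbpj-zero classes, from 3 and 4 cells, at least 10.5-fold and 27.5-fold higher by the same floor. Vpreb3 and Cd79a, genes of the B lineage, came from 2 and 7 cells and from 3 and 7 cells. Ms4a3 and Fcnb, of granulocyte progenitors, came from 5 and 5 cells and from 8 and 4 cells. Ly6c2, a surface marker of monocytes and their progenitors, had over 97.0% of its Rbpj-high UMIs in 10 cells at both times. Mt1 and Mt2, metal-binding metallothioneins, were also called, Mt1 at 20.5 against 5.74 CPM and 18.9 against 1.87 CPM in 21 and 27 Rbpj-high cells, 77.3% or more of its UMIs being in 10 cells. Apoe, a lipid carrier, and Mzb1, a chaperone of antibody-making cells, completed the 12 highest genes, at log2 folds of 1.38 and 1.26.

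Before matching, cells carrying other lineages' defining transcripts were more frequent among members, which also held more UMIs. At 5 or more such UMIs there were 24 of 270 members (8.89%, 5.78 to 12.9) against 12 of 718 Rbpj-zero cells (1.67%, 0.866 to 2.90) at 3 days. At 6 days there were 32 of 427 members (7.49%, 5.18 to 10.4) against 26 of 1158 Rbpj-zero cells (2.25%, 1.47 to 3.27). In the matched sets they were 20 of 239 (8.37%, 5.19 to 12.6) against 4 of 239 (1.67%, 0.458 to 4.23) at 3 days, and 22 of 341 (6.45%, 4.09 to 9.61) against 15 of 341 (4.40%, 2.48 to 7.15) at 6 days, where the intervals overlap. The defining transcripts were Elane, Ms4a3, Fcnb, S100a8, S100a9, Ngp, Camp, Ltf, Lcn2, Retnlg, Car1, Hba-a1, Hba-a2, Hbb-bs, Hbb-bt, Cd79a, Vpreb3, Pf4, Prss34 and Mcpt8. Several of these, such as Elane, Car1, Vpreb3 and Cd79a, were called higher, so leaving out their carriers lowers them by construction. When all cells of 5 or more defining UMIs were left out, an alternative chosen after seeing the data, the calls were 297 higher and 262 lower. Of 12 tested myeloid progenitor genes 4 were then called higher and 1 lower. Mt1 then stood at a log2 fold of 1.15 (adjusted p = 0.0579) and Ly6c2 at 0.34 (adjusted p = 0.643). Doublets were not removed, 39 members at 3 days and 105 at 6 days held over 2 times their library's median UMIs, and the part of doublets in these shares was not tested.

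Such cells differed between the libraries. Mature neutrophil and monocyte genes summed to 7927 against 526 CPM at 3 days, 15.1-fold (14.2 to 15.99), and to 1883 against 4585 CPM at 6 days, 0.411-fold (0.399 to 0.422). Ngp, Camp, Ltf and Lcn2, granule genes of maturing neutrophils, summed to 3 or more UMIs in 7 against 1 matched cells at 3 days and in 5 against 7 at 6 days. Retnlg, a neutrophil resistin-like protein called lower, stood at 2.93 against 1.33 CPM at 3 days and at 4.03 against 49.2 CPM at 6 days, in 7 against 4 cells. With the closer match 0 of 12 mature neutrophil and monocyte genes were called higher and 1 lower, beside 1 and 1 of 13. Of 8 tested erythroid genes 4 were called higher (Car1, Hba-a1, Hba-a2 and Hbb-bs) and 0 lower, beside 1.92% and 1.87% over all genes. With the closer match 1 of 5 was called higher. The haemoglobin genes have near-identical copies that can share reads, so each is uncertain, with Hba-a1 at 4.03 against 1.77 CPM at 3 days and at 135 against 2.49 CPM at 6 days. For Retnlg and Hba-a2 the 3-day library alone had the opposite direction, at log2 ratios of 0.76 and -0.88. Megakaryocyte, NK and innate lymphoid, basophil and stroma lists had 0 of 4, 4, 4 and 5 tested genes called by edgeR. At an unadjusted p under 0.05 they had 1, 1, 0 and 1, beside 1668 of 9606 over all genes. DESeq2 gave an adjusted p to 1 gene of these lists, in the NK and innate lymphoid list, and did not call it.

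B lineage genes were called higher for 3 of 11 tested, Vpreb3, Cd79a and Ebf1, and lower for 0. The shares over all genes were 1.92% and 1.87%. Ebf1, a transcription factor that specifies B cells, stood at 18.3 against 8.39 CPM at 3 days, 2.18-fold (1.26 to 3.92), and at 33.5 against 17.8 CPM at 6 days, 1.89-fold (1.37 to 2.62). Without the cells carrying other lineages' defining transcripts its log2 fold was 0.26 (adjusted p = 0.647) in place of 0.97 (adjusted p = 0.00745). Of 7 genes of the list 0 were then called higher and 1 lower. Vpreb3 and Cd79a are among the defining transcripts, so the loss of their calls followed from the exclusion itself. The closer match called 4 of 10 higher and 1 lower. Of 3 tested T lineage genes, 1 was called, Cd7, and it was lower.

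Part of the stem cell list was lower in Rbpj-high cells. Of 13 tested stem cell genes 6 were called lower and 0 higher, beside 1.87% and 1.92% over all genes, with a median log2 fold of -0.41. Hlf, a transcription factor of stem cells (chromosome 11, 90336536 to 90390895, minus strand), stood at 31.1 against 52.6 CPM at 3 days, 0.592-fold (0.443 to 0.789), and at 24.4 against 45.5 CPM at 6 days, 0.537-fold (0.411 to 0.699). Ly6a, the Sca-1 surface marker, stood at 53.1 against 71.6 CPM and 37.2 against 73.5 CPM. The others were Txnip, an inhibitor of thioredoxin that is high in resting cells, Kit, the stem cell factor receptor, and the homeobox factors Hoxa9 and Meis1, at log2 folds from -0.60 to -0.41. With the closer match the median was -0.31 and only Hoxa9 was called (adjusted p = 0.0305). Before matching, all Rbpj-zero cells held Hlf at 63.6 CPM at 3 days and 69.0 CPM at 6 days, and all uninduced and control cells at 70.8 and 66.7 CPM.

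Immediate early genes respond within minutes to stimulation or to tissue dissociation. Of 21 tested 15 were called lower in Rbpj-high cells and 0 higher, beside 1.87% and 1.92% over all genes. The median log2 fold of the list was -0.37, and 19 were lower in both libraries. Egr1, an early growth response transcription factor (chromosome 18, 34859823 to 34864984), stood at 143 against 238 CPM at 3 days, 0.601-fold (0.527 to 0.686), and at 148 against 225 CPM at 6 days, 0.655-fold (0.587 to 0.732), with an adjusted p of 7.52e-05. Socs3, a feedback inhibitor of cytokine signalling, stood at 13.9 against 26.9 CPM and 26.4 against 48.9 CPM. Dusp5, a phosphatase of ERK kinases, stood at 23.4 against 36.2 CPM and 47.6 against 78.2 CPM. With the closer match 2 of the 21, Egr1 and Ier3, were called and the median was -0.21, and 0 were called among cells of 2 or fewer mitotic UMIs, at a median of -0.23. Control cells of 1 to 4 Rbpj UMIs had the list at a summed 4557 CPM against 5049 CPM in control cells of 0.

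MHC class II genes, which present antigen, were called lower for 5 of 9 tested, beside 1.87% over all genes. Their median log2 fold was -0.61, and all 9 were lower in both libraries. Cd74, the invariant chain that guides these molecules (chromosome 18, 60803848 to 60812652), stood at 47.2 against 95.4 CPM at 3 days, 0.495-fold (0.395 to 0.619), and at 29.2 against 111 CPM at 6 days, 0.264-fold (0.212 to 0.327). Before matching, all Rbpj-zero cells held it at 117 CPM at 3 days and 148 CPM at 6 days, and all uninduced and control cells at 158 and 113 CPM. It was called with the closer match (log2 fold -1.07, adjusted p = 0.000689) and among cells of low mitotic sum (-1.40, adjusted p = 0.000466), but not when Rbpj-zero cells could be reused (-0.33, adjusted p = 0.636). H2-Oa, H2-Eb1, H2-Aa and H2-Ob, chains of the class II molecules, were the other calls, and none of these 4 was called with the closer match. Uninduced cells, unmatched, went the other way, with Cd74 at 303 CPM in cells of 1 to 4 Rbpj UMIs against 145 CPM in cells of 0. Control cells of these counts held Cd74 at 86.8 against 119 CPM.

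**Figure D4:**
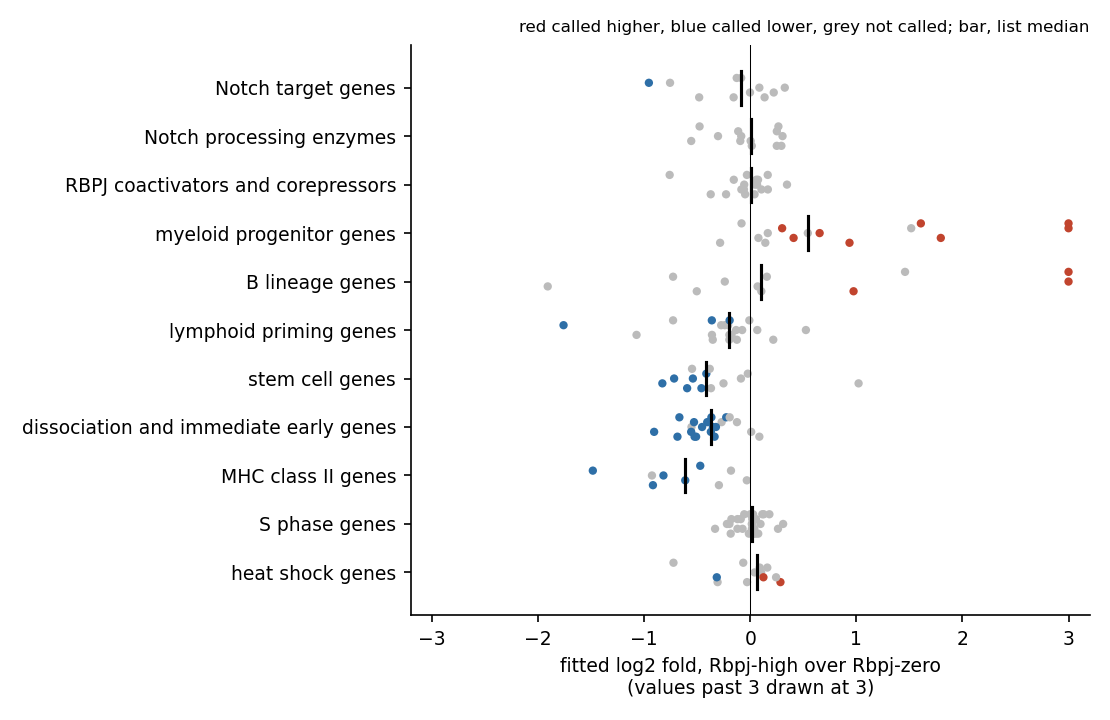
Fitted log2 fold (horizontal axis) of each tested gene in 11 gene lists, Rbpj-high over matched Rbpj-zero cells, with called genes in colour and a bar at the list median. Myeloid progenitor genes had a median of 0.54, and stem cell, immediate early and MHC class II genes had medians of -0.41, -0.37 and -0.61.

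Rbpj-high cells seldom carried the markers of Ccr9-bearing progenitors. At 3 or more summed UMIs of Ccr9, Tmem158, Cd7 and Bank1 there were 1 of 270 members against 28 of 718 Rbpj-zero cells at 3 days, and 5 of 427 members against 77 of 1158 Rbpj-zero cells at 6 days. Of these 4 genes 3 were called lower. Ccr9, a chemokine receptor of thymus-homing and dendritic progenitors, stood at 4.76 against 7.95 CPM at 3 days and 3.02 against 16.5 CPM at 6 days. Cd7, a surface protein of early lymphoid cells, stood at 1.83 against 4.86 CPM and 2.27 against 10.9 CPM. Tmem158, a membrane protein, stood at 9.15 against 22.1 CPM and 6.29 against 16.8 CPM. With the closer match Cd7 and Tmem158 were called (adjusted p = 0.0333 and 0.044) and Ccr9 was not (adjusted p = 0.138).

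Of 20 tested lymphoid priming genes 3 were called lower (Flt3, Dntt and Ccr9) and 0 higher, with a median of -0.20. At an unadjusted p under 0.05 there were 13 of the 20, beside 1668 of 9606 over all genes, 17 had a fold below 0 on the log2 scale, and 14 were lower in both libraries. The summed level was 0.872-fold (0.844 to 0.901) at 3 days and 0.908-fold (0.884 to 0.932) at 6 days. Flt3, the receptor whose surface level defines these progenitors, stood at 178 against 220 CPM at 3 days and 162 against 217 CPM at 6 days. Dntt, the terminal transferase of lymphoid progenitors, stood at 815 against 944 CPM and 828 against 937 CPM. With the closer match Dntt was called (adjusted p = 0.0106) and Flt3 was not (adjusted p = 0.0938).

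The rest of the 12 lowest genes were sparse. Mras, a Ras-like GTPase, had the lowest fold (log2 fold -2.55, adjusted p = 0.00751), at 1.10 against 7.51 CPM at 3 days and 0.755 against 4.05 CPM at 6 days, in 3 and 3 Rbpj-high cells against 15 and 13. Gria2 (a glutamate receptor subunit), Cecr6, Tceal1, Rrad (a small GTPase) and Hacd4 were at 0.366 to 4.03 CPM in Rbpj-high cells. Gm43643 stood at 4.76 against 14.6 CPM and 5.03 against 20.2 CPM. Hist3h2ba, a histone H2B gene, stood at 9.15 against 24.3 CPM and 10.8 against 28.0 CPM, and was called with the closer match too (adjusted p = 0.00624).

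Among interferon response genes 2 of 20 were called higher (Ifit1 and Rsad2) and 3 lower (Irf7, Ifi27l2a and Ifitm3). The shares over all genes were 1.92% and 1.87%. Rsad2 had 94.9% of its 3-day Rbpj-high UMIs in 10 cells and Ifit1 all of them, with a UMI in 10 Rbpj-high against 16 Rbpj-zero cells, and the closer match called 1 of 19 higher, Ifit1 (adjusted p = 0.0321), and 0 lower. Transcripts of the mitochondrial genome moved in both directions, with mt-Nd1, a subunit of complex I, at 2264 against 1878 CPM and 2252 against 1815 CPM. mt-Co1, a subunit of cytochrome oxidase, stood at 4730 against 5858 CPM and 4705 against 5770 CPM, with the lowest adjusted p of the genes named here (1.22e-08). Both were called with the closer match. Of 12 heat shock genes 2 were called higher (Hsp90ab1 and Hspd1) and 1 lower (Dnajb1), and 0 with the closer match.

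Cell cycle genes outside the matching set were called in the G2 and M phase list only. S phase genes had 0 of 30 called by edgeR and 2 at an unadjusted p under 0.05, with a median of 0.02, and DESeq2 called 0 of the 9 to which it gave an adjusted p. G2 and M phase genes had 2 of 30 called higher (Ccna2 and Anp32e) and 0 lower, with a median of 0.08. The shares over all genes were 1.92% and 1.87%, and 16 of these genes were higher and 4 lower in both libraries. At an unadjusted p under 0.05 there were 9 of the 30, beside 1668 of 9606 over all genes. The summed level was 1.05-fold (1.03 to 1.08) at 3 days and 1.10-fold (1.08 to 1.12) at 6 days. The closer match called 0 of both lists, and among cells of 2 or fewer mitotic UMIs the G2 and M median was 0.44 over 11 genes. Without cells carrying other lineages' defining transcripts 5 of 30 G2 and M phase genes were called higher and 0 lower. Of 15 integrated stress response genes 1 was called higher, Phgdh, an enzyme of serine synthesis, and it was not called with the closer match (adjusted p = 0.0947). At an unadjusted edgeR p under 0.05 there were 9 of the 15, beside 1668 of 9606 over all genes. The list had a median log2 fold of 0.22, with 10 genes higher and 3 lower in both libraries. Its summed level was 1.13-fold (1.07 to 1.20) at 3 days and 1.13-fold (1.08 to 1.19) at 6 days.

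The next levels by Rbpj count are a description, as the bins split cells by the count that chose the members and the genes were taken because they differed between the classes. Ctsg stood at 20.5, 39.5, 60.2, 80.9 and 158 CPM at 3 days, and at 15.4, 30.4, 49.99, 60.9 and 89.1 CPM at 6 days, in cells of 0, 1 to 4, 5 to 9, 10 to 19 and 20 or more Rbpj UMIs. Hlf stood at 63.6, 47.7, 44.6, 37.6 and 16.9 CPM at 3 days, and at 69.0, 44.7, 32.9, 28.4 and 18.7 CPM at 6 days. Egr1 differed mainly between the first bins, at 299, 206, 150, 151 and 150 CPM at 3 days and 257, 227, 166, 127 and 154 CPM at 6 days. These bins were not matched and the mitotic genes given above moved with them. In control cells, where Rbpj was not induced, cells of 1 to 4 Rbpj UMIs also differed from cells of 0, with Mpo at 133 against 98.2 CPM, Ctsg at 55.1 against 39.5 CPM, Hlf at 48.2 against 70.4 CPM and the mitotic genes at 1330 against 952 CPM. Egr1 was alike in these control cells, at 179 CPM (166 to 193) against 181 CPM (175 to 187). The same comparison in uninduced cells gave Mpo at 123 against 77.5 CPM, Ctsg at 55.7 against 35.1 CPM and Hlf at 51.1 against 72.7 CPM. Mitotic genes stood there at 1115 against 845 CPM and Egr1 at 232 against 245 CPM.

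**Figure D5:**
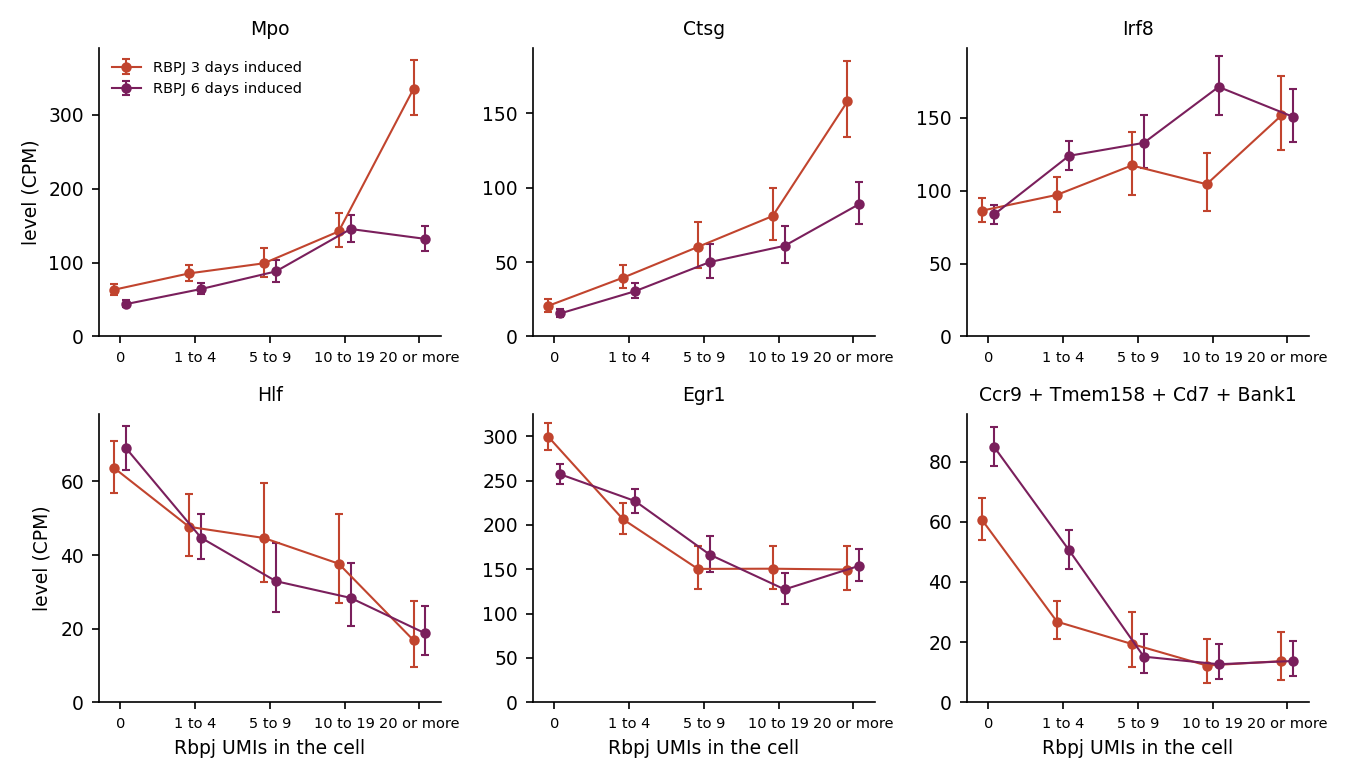
Level (CPM summed over the cells, with exact Poisson 95% intervals) of 5 genes and of the summed Ccr9 progenitor markers by the number of Rbpj UMIs in the cell, in both induced libraries. Ctsg was at 158 CPM (3 days) and 89.1 CPM (6 days) in cells of 20 or more Rbpj UMIs, and Hlf at 16.9 and 18.7 CPM.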

How the data were processed

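Members, gene lists and tests were chosen with earlier results of these data known. The deposited matrices hold whole UMI counts per gene and barcode; per the file headers they cover 27998 genes and 737280 barcodes in each library. The authors' second table gives log2 values per cell and was used only to define the cells. Seurat and mm10 are named per the submitters' processing notes, while aligner, counter and annotation are not given in the sources used here. Gene positions are those of GENCODE for GRCm38.

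UMIs were summed per library and class and scaled to CPM. Cells of 5 or more Rbpj UMIs were paired 1 to 1 without replacement, in order of falling total, with the nearest cell of 0 Rbpj UMIs within 0.5 log2 of total UMIs and 1 log2 of the mitotic sum. Members with no such cell were left out of the comparison. Doublets were kept and no caller was run. The 4 sums were tested with edgeR 4.0.16 (quasi-likelihood, library and class as terms, TMM, low-count filter) in R 4.3.3, without Rbpj, and the procedure was tested on simulated data. DESeq2 1.42.0 was an alternative. Its missing adjusted p-values stayed missing. Intervals are exact Poisson (levels), conditional exact (folds) and exact binomial, Clopper-Pearson (shares).

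Named genes were the 12 highest and 12 lowest by fitted fold among those called and 1.5-fold apart the same way in both libraries (sex-linked, haemoglobin, antigen receptor and matching genes left out), the core Notch targets, Notch1, Rbpj, and up to 3 called genes each way of each of 29 lists. Mpo, Prtn3, Calr, Kit, Hoxa9, Meis1, Ier3, H2-Aa and H2-Ob, as well as Notch genes that were not called, were named after their values were seen. Defining transcripts of other lineages and the alternatives with closer match and low mitotic sum were chosen after seeing the data.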

Additional observations from a re-analysis of the deposited data

Results flagged for a closer look

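In the RBPJ uninduced library, which no comparison of Rbpj-high with Rbpj-zero cells used, 3 of 2769 cells (0.108%, 0.0223 to 0.316) held 5 or more Rbpj UMIs, against 0 of 2693 control cells. It is listed here because it is a signal outside the main measurement. None of the 3 barcodes belonged to a cell of the induced libraries.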

How the results depend on the processing

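Rbpj-high and Rbpj-zero sums were paired within each library through the library term of the fit. Libraries of different groups could not be paired, as 1 library stands for each group. The count of 184 genes higher and 180 lower became 52 and 30 with DESeq2, 1125 and 1029 with all Rbpj-zero cells unmatched, 15 and 14 in cells of 2 or fewer mitotic UMIs, 56 and 52 with the closer match, 535 and 387 with members at 3 or more Rbpj UMIs, 29 and 25 with reused Rbpj-zero cells, 1 and 1 with no library term, 88 and 111 without cells carrying Ccr9, Tmem158, Cd7 or Bank1, and 53 and 52 without cells carrying transcripts of other types. Without cells carrying defining transcripts of other types it was 297 higher. Size factors, UMI totals, thinning, no low-count filter, members at 10 or more UMIs and leaving out cells above 2 times the median UMIs kept both counts within 1.5 times. Hes1 kept its direction in every alternative run, and lost its call at -0.45 (low mitotic sum), -0.58 (reused cells) and -0.88 (no library term), while DESeq2 (-1.06) gave it no adjusted p and so no call; the single libraries gave -1.50 and -0.71, with no test. Directions reversed for Apoe (-0.20), Ptcra (-1.18) and Dntt (0.057) unmatched, for Hes5 (0.39), Nrarp (0.094) and Ifi27l2a (0.077) with reused cells, for Hes5 (0.0023) without defining-transcript cells, for Ptcra (-0.51) at 3 or more Rbpj UMIs, for Anp32e (-0.0026) and Ifi27l2a (0.19) at low mitotic sum, and for Ifit1 (-0.13) without other-type cells. The single libraries gave -3.32 to 0.76 for Retnlg and -0.88 to 4.57 for Hba-a2. The cause of these changes was not tested. Of 47 named calls testable with the closer match 21 were called again. With reused Rbpj-zero cells 15 of 52 were called again. That match set no limit on distance and held all members, with 151 and 211 distinct Rbpj-zero cells. Its medians were 11071.5 against 11047.5 UMIs at 3 days and 11436 against 11385 UMIs at 6 days. Without cells carrying transcripts of other types, which left 67 and 162 pairs, 11 of 32 named calls were called again, and Ctsg (0.19) and Irf8 (0.24) were not.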
